A study of Rattus norvegicus with 36 samples.

Results

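The carriers that move dietary peptides and amino acids across the intestinal epithelium were examined as a set of 10 named genes. They were found by their symbols among the 24773 gene rows of the raw count table, which gave 9 rows. Slc6a20, an apical imino acid carrier, matched no row by symbol and was not analysed here. The apical set held 5 of the 9 genes (Slc15a1, Slc6a19, Slc3a1, Slc7a9 and Slc1a1), the basolateral set held 3 (Slc3a2, Slc7a7 and Slc7a8), and 1 (Slc7a15) was put in neither set.

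Transcripts were counted by RNA-seq in distal ileum and proximal colon of 18 male UCD-T2DM rats, a polygenic rat model in which obesity and type 2 diabetes arise without an injected toxin, in 36 libraries. The 6 nondiabetic rats (ND) were 70 days old. The 6 D1M rats were 168 to 172 days old and had been diabetic for 22 to 23 days, and the 6 D3M rats were 172 to 173 days old and had been diabetic for 88 to 116 days without treatment. Rats of all groups came from the same colony, ate standard chow and were fasted before death, and the model has no genetically matched control strain. Fasting glucose ranged from 85.6 to 101.6 mg/dl in ND rats, from 93.6 to 178.6 mg/dl in D1M rats and from 165 to 330.6 mg/dl in D3M rats. In every comparison with ND rats, diabetes and age cannot be told apart, whereas D3M and D1M rats were close in age. Age at onset was 57 to 85 days in D3M rats and 146 to 150 days in D1M rats. Body weight was 390 to 431 g in ND, 597 to 663 g in D1M and 472 to 575 g in D3M rats.

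Most dietary protein is taken up by enterocytes as small peptides and free amino acids. Peptides enter with protons through the apical carrier PEPT1 (Slc15a1) and are largely hydrolysed inside the cell. Neutral amino acids enter with sodium through Slc6a19, cystine and dibasic amino acids enter in exchange for neutral ones through the Slc3a1 and Slc7a9 heterodimer, and acidic amino acids enter through Slc1a1. Amino acids leave toward the blood through basolateral heterodimers of Slc3a2, the CD98 heavy chain, with light subunits such as Slc7a7 and Slc7a8.

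Library totals ranged from 12279059 to 21510043 counts in ileum and from 10024041 to 18299050 counts in colon. Each level is a CPM value, brought to a common library size with factors from the trimmed mean of M values (TMM). They were not compared between genes because they are not per unit of length. The pieces were whole tissue, so that fewer cells of a type and less RNA per cell cannot be told apart. Of the 36 libraries, 2 ND libraries held transcripts of the other tissue. The colon library of rat K4028 held 8193 CPM of the ileal bile acid binding protein Fabp6, while the remaining 17 from colon ranged from 1.89 to 19.9 CPM. The ileum library of rat K4040 held 464 CPM of the colonic carbonic anhydrase Car2, while the remaining 17 from ileum ranged from 4.87 to 10.2 CPM.

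In ileum, 5 carriers rose and 1 fell in D3M relative to ND rats at a false discovery rate (FDR) below 0.05. Slc15a1, Slc6a19 and Slc3a1 of the apical set and Slc3a2 and Slc7a7 of the basolateral set were higher, by 1.47-fold to 1.97-fold, and the apical glutamate carrier Slc1a1 was lower. The share of all tested transcripts that passed was 12.5% in either direction, 8.31% for higher and 4.22% for lower transcripts. The members were chosen with earlier results of these data known, so their count beside this share is a description. Slc7a9, Slc7a8 and Slc7a15 did not pass. All 9 members had enough counts to be tested in ileum.

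The upstream sequences of 3 apical carriers that rose together are shown, because Slc6a19 had the largest called change of the set, Slc15a1 is the peptide carrier, and Slc3a1 held the 1 motif match among the members. Each runs from 250 bases before to 50 bases after the RefSeq start on build GRCr8, in lower case, with the motif match in capitals. Slc6a19 lies at chr1:31414494-31414793 on the plus strand, Slc15a1 at chr15:104949295-104949594 on the minus strand and Slc3a1 at chr6:15394700-15394999 on the minus strand. The strand of Slc3a1 differs between GRCr8 and the rn6 build of the count table, which gives the plus strand.
Slc6a19: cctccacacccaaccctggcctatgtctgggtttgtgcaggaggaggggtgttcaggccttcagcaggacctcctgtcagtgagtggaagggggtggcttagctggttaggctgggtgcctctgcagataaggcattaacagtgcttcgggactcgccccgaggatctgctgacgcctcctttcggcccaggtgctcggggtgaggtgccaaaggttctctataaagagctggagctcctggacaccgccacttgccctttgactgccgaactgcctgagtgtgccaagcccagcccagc
Slc15a1: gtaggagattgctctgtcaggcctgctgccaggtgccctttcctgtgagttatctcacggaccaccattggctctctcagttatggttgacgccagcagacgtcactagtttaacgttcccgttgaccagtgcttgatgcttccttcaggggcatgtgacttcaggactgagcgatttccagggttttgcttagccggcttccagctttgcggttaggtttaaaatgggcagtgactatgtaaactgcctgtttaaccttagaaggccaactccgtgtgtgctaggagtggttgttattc
Slc3a1: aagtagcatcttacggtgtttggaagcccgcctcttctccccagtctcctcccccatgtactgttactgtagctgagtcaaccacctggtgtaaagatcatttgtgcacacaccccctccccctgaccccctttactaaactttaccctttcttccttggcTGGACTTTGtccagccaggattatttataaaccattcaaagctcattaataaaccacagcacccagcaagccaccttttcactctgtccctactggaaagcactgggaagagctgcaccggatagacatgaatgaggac

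The RefSeq promoter table held 9 promoters for 8 of the members, with 2 for Slc3a2 and none for Slc1a1. They were searched on both strands for 4 motifs. The HNF4 motif CAAAGTCCA was found in 1 of the 9, in Slc3a1 on the strand opposite to the gene and starting at position -89 from its start, and in 0.391% of all 33469 promoters. HNF4 is a nuclear receptor of hepatocytes and enterocytes. The amino acid response element TGATGNAA was found in 0 of the 9 and in 3.98% of all promoters, and the CDX2 motif GCAATAAA in 0 of the 9 and in 0.84%. The HNF1 palindrome was found in 0 of the 9 and in 0.00299%. A match describes these letters in this window only.

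Slc15a1, the proton-coupled peptide carrier (rn6, chromosome 15, 106800081 to 106844426, minus strand, ENSRNOG00000011598), had 784, 1063 and 1368 CPM as the lowest, median and highest values in ND ileum, 1157, 1219 and 1550 CPM in D1M ileum, and 1521, 2103 and 2475 CPM in D3M ileum. The D3M rats all lay above the ND rats, and 1 D1M rat reached into the D3M range. The log2 fold change of D3M relative to ND was 0.77 ± 0.17 (SE, n = 6 rats per group), which is 1.70-fold (edgeR quasi-likelihood test, FDR = 0.0102).

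Slc6a19, the sodium-coupled carrier of neutral amino acids (chromosome 1, 32199810 to 32220045, plus strand, ENSRNOG00000026501), had 1403, 1819 and 2004 CPM as the lowest, median and highest values in ND ileum, 1587, 2128 and 2406 CPM in D1M ileum, and 2924, 3461 and 4220 CPM in D3M ileum. The D3M values were all above those of the other groups. The log2 fold change of D3M relative to ND was 0.98 ± 0.15 (SE), which is 1.97-fold (edgeR, FDR = 0.00188), the largest change among the members that passed. An antisense gene overlaps the row, and it had 1 count in all ileum libraries, against 747387 counts of Slc6a19. A row that the file describes as similar to Slc6a20, named RGD1566368 and not a member, had a median of 26.4 CPM in ND, 30.9 CPM in D1M and 28.4 CPM in D3M ileum, and its log2 fold change of D3M relative to ND was -0.03 ± 0.26 (SE; edgeR, FDR = 0.954).

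Slc3a1, the heavy subunit of the apical cystine and dibasic amino acid exchanger (chromosome 6, 8284878 to 8318674, plus strand, ENSRNOG00000007006), had 279, 424 and 445 CPM as the lowest, median and highest values in ND ileum, 389, 486 and 582 CPM in D1M ileum, and 476, 642 and 741 CPM in D3M ileum. All D3M rats were above all ND rats, with D1M rats overlapping both. Slc3a1 rose by a log2 fold change of 0.70 ± 0.17 (SE) in D3M relative to ND (edgeR, FDR = 0.0137). Its light subunit Slc7a9 (chromosome 1, 91716383 to 91738494, plus strand, ENSRNOG00000012344) had 253, 377 and 445 CPM in ND ileum, 339, 396 and 566 CPM in D1M ileum, and 426, 503 and 631 CPM in D3M ileum. These ranges overlapped, and its log2 fold change of D3M relative to ND was 0.39 ± 0.18 (SE) and did not pass (edgeR, FDR = 0.149). In humans, loss of either subunit causes cystinuria.

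Slc1a1, the sodium-coupled carrier of glutamate and aspartate (chromosome 1, 246954980 to 247037056, plus strand, ENSRNOG00000014816), went against the other called members. It had 60.2, 75.8 and 97.6 CPM as the lowest, median and highest values in ND ileum, 44.2, 68.2 and 83.2 CPM in D1M ileum, and 47.3, 58.6 and 61.3 CPM in D3M ileum. The ranges of D3M and ND rats met only between 60.2 and 61.3 CPM. Slc1a1 fell by 0.70 ± 0.13 on the log2 scale in D3M relative to ND (SE; edgeR, FDR = 0.00366).

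On the basolateral side, Slc3a2 (chromosome 1, 224906554 to 224921092, minus strand, ENSRNOG00000018487) had 232, 269 and 313 CPM as the lowest, median and highest values in ND ileum, 233, 293 and 318 CPM in D1M ileum, and 330, 426 and 473 CPM in D3M ileum. The D3M values were all above those of the other groups. Its log2 fold change of D3M relative to ND was 0.55 ± 0.13 (SE; edgeR, FDR = 0.0122).

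Slc7a7, the light subunit that exports dibasic amino acids in exchange for neutral ones and sodium (chromosome 15, 33013504 to 33051129, minus strand, ENSRNOG00000010296), had 219, 297 and 368 CPM as the lowest, median and highest values in ND ileum, 205, 299 and 319 CPM in D1M ileum, and 416, 523 and 557 CPM in D3M ileum. The D3M rats were again all above the rest. Its log2 fold change of D3M relative to ND was 0.67 ± 0.17 (SE; edgeR, FDR = 0.0178). Leaving out 1 library ended this call, with FDR = 0.0534 without ND rat K4028 and FDR = 0.0584 without D1M rat K3986.

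Slc7a8, the exchanger of neutral amino acids that shares Slc3a2 as heavy chain (chromosome 15, 33369216 to 33428973, minus strand, ENSRNOG00000014311), had 56.9, 76.7 and 81.9 CPM in ND ileum, 52.3, 58.5 and 86.5 CPM in D1M ileum, and 52.7, 63.5 and 68.5 CPM in D3M ileum. The groups overlapped, and the log2 fold change of D3M relative to ND was -0.35 ± 0.14 (SE; edgeR, FDR = 0.102).

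Slc7a15, a further light subunit of this family that is expressed in rodents (chromosome 6, 33728107 to 33738825, minus strand, ENSRNOG00000006119), had 42.7, 72.5 and 104 CPM in ND ileum, 32.3, 53.1 and 77.5 CPM in D1M ileum, and 47.2, 112 and 311 CPM in D3M ileum. Relative to its mean it had the widest spread of the members in D3M rats, with rat P780 at 311 CPM, rat K3959 at 47.2 CPM, and the next highest rat at 120 CPM. Its log2 fold change of 0.94 ± 0.38 (SE) in D3M relative to ND did not pass (edgeR, FDR = 0.112). DESeq2 gave an adjusted p of 0.0302 for the same contrast, and edgeR gave 0.0484 without D3M rat K3959. That was the only 1 of the 18 fits leaving out a library in which it passed, and without D3M rat P780 its log2 fold change was 0.55 (edgeR, FDR = 0.364).

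**Figure D1:**
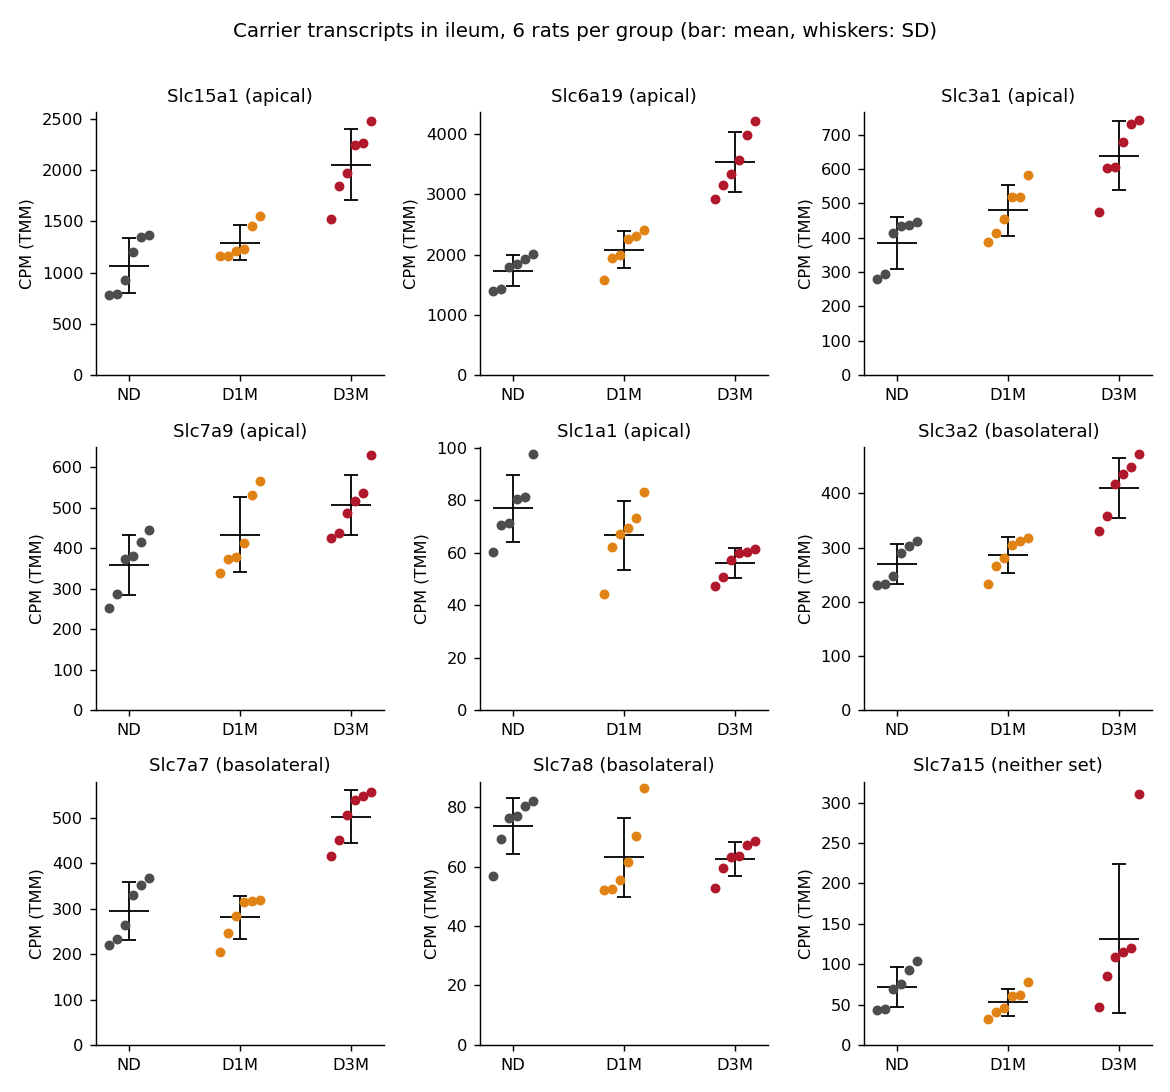
CPM of each of the 9 carriers in ileum (vertical axes from 0, one panel per gene), with a point for each of the 6 rats of ND, D1M and D3M groups, bars at the mean and whiskers of 1 SD. Points of D3M rats sit above all ND points for Slc15a1, Slc6a19, Slc3a1, Slc3a2 and Slc7a7, and Slc1a1 is lower in D3M rats.

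The ranges of D3M and ND rats did not overlap, with D3M higher, for 5 of 9 members, and for 4.94% of all tested transcripts. Ranges with D3M lower were apart for 0 of 9 members, and for 1.32% of all tested transcripts. As the members were chosen with earlier results of these data known, these counts are a description. The called share of apical carriers was 4 of 5 (3 higher and 1 lower) and that of basolateral carriers was 2 of 3 (both higher). The median log2 fold change of D3M relative to ND was 0.70 over the apical set (range -0.70 to 0.98), 0.55 over the basolateral set (range -0.35 to 0.67) and -0.08 over all 13026 transcripts tested. Each set thus held carriers that were higher and a carrier with a negative value, and no difference between the sides was tested.

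Flow cell was a term of the model because the groups were spread unevenly over the 3 flow cells, with 4, 0 and 2 ileum libraries of D3M rats and 1, 3 and 2 of ND rats on flow cells 1, 2 and 3. Within flow cell 3, which held 2 rats of each group, the mean difference between D3M and ND on the log2 scale was positive for 7 of 9 members, among them 1.12 for Slc15a1, 1.15 for Slc6a19 and 0.74 for Slc7a7, and it was -0.32 for Slc1a1. Within flow cell 1 it was also positive for 7 of 9, with 0.52 for Slc15a1, 0.78 for Slc6a19, 0.63 for Slc7a7 and -0.86 for Slc1a1, against a lone ND rat. The same libraries gave the calls and the members vary together, so these signs are a description and no separate evidence. No share of all transcripts is given beside them.

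The summed level of the epithelial list (8 of 9 genes matched, among them Epcam, Vil1 and Cdh1, each detected in all ileum libraries) ranged from 25547 to 34541 CPM in D3M ileum and from 17782 to 24826 CPM in ND ileum. Of its 8 genes, 2 rose (Vil1 and Cldn7), 1 fell (Krt18) and 5 did not pass, so that the sum moved while most single genes did not pass. The enterocyte list summed to between 38952 and 62473 CPM in D3M ileum and between 21146 and 32687 CPM in ND ileum. The epithelial score of a library was the mean log2 CPM of the genes of the epithelial list, not their sum. With the epithelial score as a covariate, 2 of 9 members passed between D3M and ND, Slc6a19 with a log2 fold change of 0.76 ± 0.15 (SE; edgeR, FDR = 0.0272) and Slc1a1 with -0.79 ± 0.16 (SE; edgeR, FDR = 0.027). Calls over all transcripts also fell in that fit, as given in the closing section, so the drop was not particular to the carriers. In that fit Slc15a1 was at 0.48 ± 0.17 (SE; edgeR, FDR = 0.135) and Slc7a9 at -0.033 ± 0.13 (SE; edgeR, FDR = 0.907).

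The summed level of 11 crypt and cycling markers ranged from 377 to 710 CPM in D3M ileum and from 514 to 1030 CPM in ND ileum, and 1 of them (Ccnb1, a mitotic cyclin) was lower and passed. Sums of B cell and smooth muscle markers overlapped between the groups, with 29.6 to 381 CPM in D3M and 35.0 to 1081 CPM in ND ileum for B cells, and 1198 to 8156 CPM in D3M and 1503 to 6923 CPM in ND ileum for smooth muscle. Of these cell types, only B cells had a score fitted as covariate. The part of crypt cells and smooth muscle in the carrier levels was not tested.

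The remaining lists were counted in the same way between D3M and ND ileum, beside the 8.31% of all tested transcripts that were higher and the 4.22% that were lower. Nothing is read from single calls in these short lists. Of 16 enterocyte genes, 8 rose and 0 fell, among them the apolipoproteins Apoa1 and Apob with log2 fold changes of 1.33 and 0.87. Of 8 ileum identity genes, 4 rose. Of 5 tested genes of the colon identity list, 1 rose, Ceacam1, which did not mark colon in these data. Outside the mixed libraries it had 307 to 711 CPM in ileum and 10.7 to 68.6 CPM in colon. Of 8 enteroendocrine genes, 1 rose (Cck) and 2 fell (Chga and Chgb). Of 7 neuron and glia genes, 1 fell (S100b). Of 12 B cell, 8 smooth muscle and 7 goblet and Paneth genes, 0 passed in edgeR.

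With only the D3M and ND libraries in the fit, 2 of 9 members passed, Slc6a19 and Slc1a1, and the other 4 called members had FDR between 0.0876 and 0.101. Calls over all transcripts also fell in that fit, as given in the closing section, so this drop was not particular to the carriers. Without the mixed ileum library of rat K4040, 6 of 9 members passed, with Slc15a1 at a log2 fold change of 0.88 ± 0.19 (SE; edgeR, FDR = 0.0122) and Slc6a19 at 1.04 ± 0.16 (SE; edgeR, FDR = 0.0046).

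D3M rats were also compared with D1M rats, which were close in age and had been diabetic for a shorter time. Length of diabetes, age at onset and body weight cannot be told apart between these groups. In this comparison 4 of 9 members rose and 0 fell, whereas 2.22% of all tested transcripts passed in either direction, 1.93% as higher and 0.292% as lower. Slc7a7 had a log2 fold change of 0.78 ± 0.15 (SE, n = 6 rats per group; edgeR, FDR = 0.0231), Slc6a19 of 0.72 ± 0.13 (SE; edgeR, FDR = 0.0231), Slc15a1 of 0.59 ± 0.15 (SE; edgeR, FDR = 0.0494) and Slc3a2 of 0.48 ± 0.11 (SE; edgeR, FDR = 0.0392). The paper lists these 4 among the transcripts that differed between D3M rats and both other groups. The members were chosen with such results known, so their counts beside the shares of all transcripts are a description. By side, 2 of 5 apical and 2 of 3 basolateral carriers passed. The ranges of D3M and D1M rats did not overlap for 3 members, Slc6a19, Slc3a2 and Slc7a7, and for 1.32% of all transcripts with D3M higher.

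Slc7a15 had the largest log2 fold change of D3M relative to D1M among the members, 1.26 ± 0.32 (SE), and just missed the threshold (edgeR, FDR = 0.0519). It passed in DESeq2, with an adjusted p of 0.000896, and in voom, with 0.0164. In edgeR it passed in 4 of the 18 fits that each left out 1 library (FDR 0.0142 to 0.134). Its log2 fold change was lowest, at 0.95, without D3M rat P780. Slc3a1 was at 0.38 ± 0.14 (SE; edgeR, FDR = 0.157), Slc1a1 at -0.34 ± 0.11 (SE; edgeR, FDR = 0.106), Slc7a9 at 0.17 ± 0.15 (SE; edgeR, FDR = 0.573) and Slc7a8 at -0.08 ± 0.12 (SE; edgeR, FDR = 0.764). The calls between D3M and D1M depended on single libraries. No member was called without D1M rat K3978, K3988 or K3989 or without D3M rat K3961, and 2 were called without D3M rat K3977, K3980 or P780 or without D1M rat K3990. Calls over all transcripts moved as well, from 6 without D1M rat K3989 to 761 without D3M rat K3959, against 289 with all libraries. The shifts were thus not particular to the carriers. Slc15a1 passed in only 5 of the 18 fits that each left out 1 library (FDR up to 0.125), Slc3a2 in 10, and Slc6a19 and Slc7a7 in 14 each. Over these 18 fits the log2 fold change of Slc6a19 stayed between 0.64 and 0.77 and that of Slc7a7 between 0.68 and 0.84. With the epithelial score as a covariate, 1 of 9 members was called, Slc6a19 (log2 fold change 0.61 ± 0.12, SE; edgeR, FDR = 0.0396). Calls over all transcripts fell in that fit as well. In that fit Slc7a7 was at 0.66 ± 0.14 (SE; edgeR, FDR = 0.061), Slc3a2 at 0.42 ± 0.12 (SE; edgeR, FDR = 0.107) and Slc15a1 at 0.43 ± 0.13 (SE; edgeR, FDR = 0.129).

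D1M rats differed from ND rats in 0 of 9 members in edgeR, with 2 members at an unadjusted p below 0.05 (Slc1a1 and Slc7a8), and DESeq2 and voom also called 0. Of all tested transcripts, 0.0154% passed at FDR < 0.05. Their share at the unadjusted p is not given, so nothing is read from the count of 2 members. Slc1a1 had the lowest FDR of the set, with a log2 fold change of D1M relative to ND of -0.37 ± 0.12 (SE; edgeR, FDR = 0.436). The log2 fold changes of the others lay between -0.32 for Slc7a15 and 0.32 for Slc3a1. The 3 comparisons in ileum share groups, so their values are set side by side and no agreement between them was computed.

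**Figure D2:**
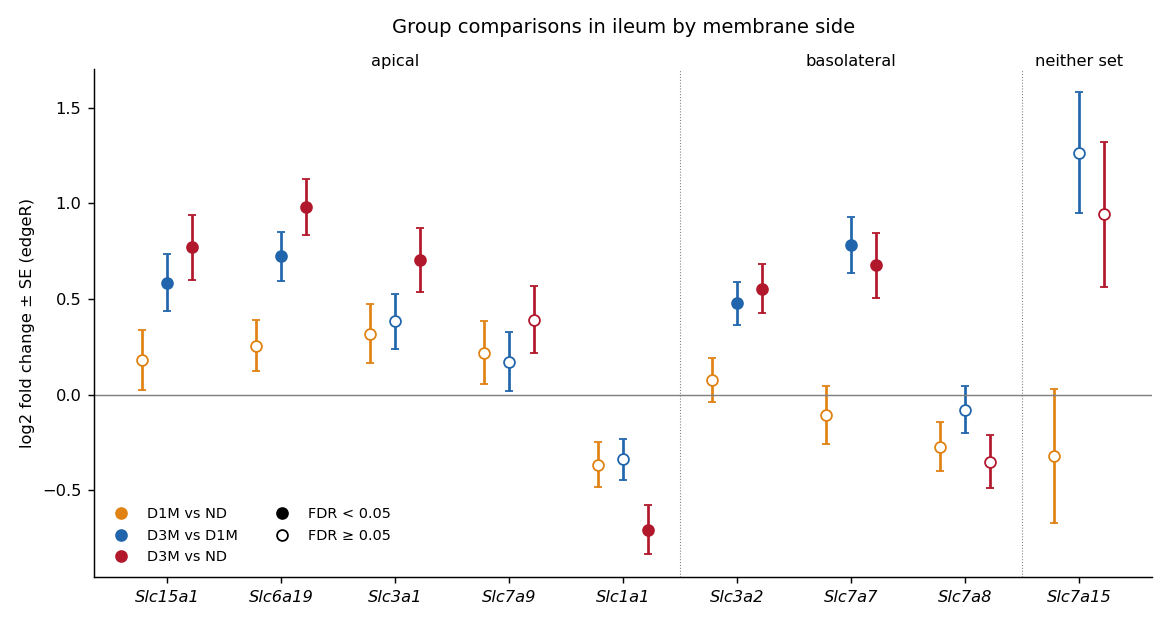
Log2 fold change in ileum (vertical axis, whiskers of 1 SE) for each carrier in the comparisons D1M vs ND, D3M vs D1M and D3M vs ND, with apical, basolateral and other carriers set apart and filled points at FDR below 0.05. Filled points above 0 belong to Slc15a1, Slc6a19, Slc3a1, Slc3a2 and Slc7a7, the only filled point below 0 is that of Slc1a1 in D3M vs ND, and no D1M vs ND point is filled.

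Within a library, the difference in log2 CPM between 2 carriers shows how they shifted relative to each other. The difference of Slc7a7 over Slc7a8, which share the Slc3a2 chain, had a mean of 1.98 ± 0.30 in ND, 2.16 ± 0.22 in D1M and 3.00 ± 0.14 in D3M ileum (SD, n = 6 each), and the D3M values, 2.83 to 3.21, lay above all others. The difference of Slc15a1 over Slc1a1 was 3.77 ± 0.32 in ND, 4.29 ± 0.33 in D1M and 5.18 ± 0.27 in D3M ileum (SD, n = 6 each). The D3M values ran from 4.65 to 5.43 and overlapped the D1M values between 4.65 and 4.71. Slc3a2 over Slc7a8 was 1.87 ± 0.24 in ND, 2.20 ± 0.27 in D1M and 2.71 ± 0.12 in D3M ileum (SD, n = 6 each), and all D3M values lay above all others. These sets of values are descriptions with no test.

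In the remaining 3 pairs the group means lay closer together. Slc15a1 over Slc6a19 was at -0.72 ± 0.20 in ND, -0.68 ± 0.20 in D1M and -0.79 ± 0.13 in D3M ileum (SD, n = 6 each), with overlapping ranges. The apical heavy subunit Slc3a1 over its light subunit Slc7a9 was at 0.10 ± 0.12 in ND, 0.16 ± 0.14 in D1M and 0.33 ± 0.26 in D3M ileum (SD, n = 6 each), also overlapping. The basolateral heavy chain Slc3a2 over Slc7a7 was at -0.11 ± 0.15 in ND, 0.04 ± 0.13 in D1M and -0.30 ± 0.11 in D3M ileum (SD, n = 6 each).

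**Figure D3:**
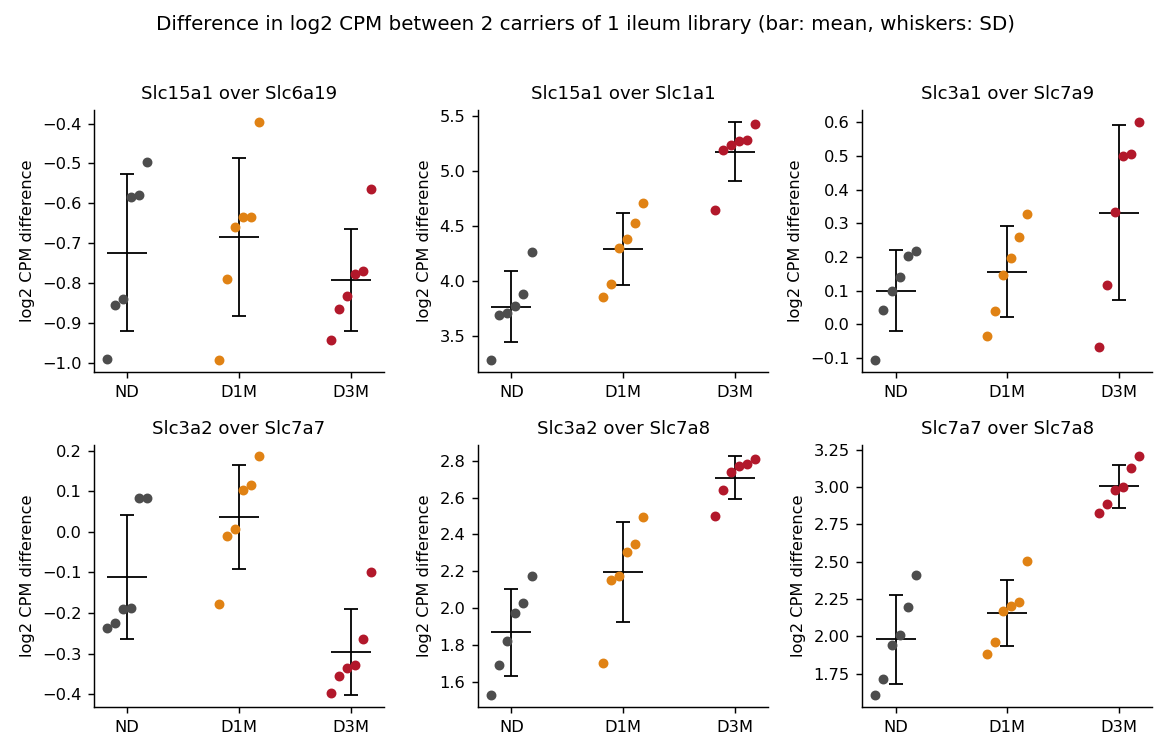
Difference in log2 CPM between 2 carriers of the same ileum library (vertical axes, 6 panels), with a point per rat in ND, D1M and D3M groups, bars at the mean and whiskers of 1 SD. The panel of Slc7a7 over Slc7a8 has its D3M points between 2.83 and 3.21, above all other points, and the panel of Slc15a1 over Slc6a19 has overlapping groups.

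Across the 18 ileum libraries the log2 CPM of the called carriers that rose varied together. Pearson's r was 0.94 between Slc15a1 and Slc6a19 and 0.95 between Slc3a2 and Slc7a7, and after each group's mean was taken out it was 0.77 and 0.87. Slc7a8 had r between -0.11 and 0.09 with the other members except Slc1a1, with which it had 0.32, and Slc1a1 had negative r with all members but Slc7a8. These values changed once group means were taken out. Slc1a1 then had r of 0.32 with Slc15a1, 0.20 with Slc7a9 and 0.12 with Slc7a15. With Slc6a19, Slc3a1, Slc3a2 and Slc7a7 its r stayed negative, at -0.14 to -0.06. Slc7a8 then had r between 0.42 and 0.55 with Slc15a1, Slc6a19, Slc3a1, Slc7a9, Slc3a2 and Slc7a7. The points share groups and tissue composition, and these values are descriptions. Among 10944 transcripts whose log2 CPM averaged 1 or more, those most like Slc15a1 were Cobl (r = 0.98), an actin nucleator, Dsp (r = 0.98), a desmosome protein, and Cdh17 (r = 0.98), an intestinal cadherin. Those most like Slc3a2 were Elovl1, Dgat2 and Gucy2c (r = 0.97, 0.97 and 0.96), and those most like Slc7a15 were Abcd3, Esrra and Exo5 (r = 0.88, 0.85 and 0.85).

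Of 27 other carriers of amino acids and peptides, 23 were tested in ileum, and 2 rose, 0 fell and 21 did not pass between D3M and ND, with a median log2 fold change of -0.09. This share of higher calls was near the 8.31% of all tested transcripts, and the difference from the 9 members was not tested. The 2 were Slc43a2, a basolateral facilitative carrier of neutral amino acids, with 1.04 ± 0.18 (SE; edgeR, FDR = 0.00365), and Slc36a1, a proton-coupled carrier of small amino acids, with 1.09 ± 0.28 (SE; edgeR, FDR = 0.02). Slc43a2 ranged from 295 to 387 CPM in D3M ileum and from 156 to 199 CPM in ND ileum. Slc36a1 was low throughout, at 5.58 to 11.0 CPM in D3M and 1.57 to 5.47 CPM in ND ileum. Against D1M rats, 0 of the 23 passed.

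Of 11 tested partners and ion movers of the carriers, 5 rose, 2 fell and 4 did not pass between D3M and ND. Among those that rose, the brush border scaffold Pdzk1 had a log2 fold change of 0.92 ± 0.14 (SE; edgeR, FDR = 0.00229), the ion pump beta subunit Atp1b1 of 0.72 ± 0.16 (SE; edgeR, FDR = 0.0112) and the scaffold Slc9a3r1 of 0.74 ± 0.17 (SE; edgeR, FDR = 0.0117). The 2 that fell, named after their values were seen, were the apical sodium and proton exchanger Slc9a3, with a log2 fold change of -1.43 ± 0.33 (SE; edgeR, FDR = 0.0141), and the beta subunit Atp1b3, with -0.41 ± 0.11 (SE; edgeR, FDR = 0.0257).

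Peptidases that release the substrates of these carriers were tested with 14 genes, of which 6 rose, 0 fell and 8 did not pass, with a median log2 fold change of D3M relative to ND of 0.56. Aminopeptidase N (Anpep) rose by 0.93 ± 0.18 (SE; edgeR, FDR = 0.00557), dipeptidyl peptidase 4 (Dpp4) by 0.85 ± 0.15 (SE; edgeR, FDR = 0.00323), Xpnpep2 by 0.84 ± 0.14 (SE; edgeR, FDR = 0.00255) and the cytosolic leucine aminopeptidase Lap3 by 0.93 ± 0.16 (SE; edgeR, FDR = 0.00318). Of 7 sugar carriers and disaccharidases, 6 rose, and the sodium and glucose carrier Slc5a1 had a log2 fold change of 1.25 ± 0.24 (SE; edgeR, FDR = 0.00487).

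Of 17 genes of the response to amino acid shortage, 3 rose, 3 fell and 11 did not pass. Its regulator Atf4 had a log2 fold change of D3M relative to ND of 0.15 ± 0.12 (SE; edgeR, FDR = 0.434). The genes that rose were Trib3 (0.83 ± 0.14), Ddit3 (0.55 ± 0.10) and Sesn2 (0.64 ± 0.12; log2 fold change and SE), and those that fell were Gars, Atf5 and Eif4ebp1, at -0.38 to -0.43. Asns, the asparagine synthetase, was at -0.30 ± 0.18 (SE; edgeR, FDR = 0.263).

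All 9 carriers were called as higher in ileum than in colon over the 36 libraries, as were 34.5% of all tested transcripts. Of the 9 carriers, 7 passed the filter on low counts in each tissue, whereas Slc15a1 and Slc3a1 entered the test only through ileum, where they are high, so their calls are given as a description. Fitted fold changes of carriers with few or no counts in colon depend on the prior count and are not exact sizes. The log2 fold change of ileum relative to colon had a median of 8.14 over the apical set (range 1.61 for Slc1a1 to 9.43 for Slc15a1) and of 2.33 over the basolateral set (range 1.85 for Slc3a2 to 3.95 for Slc7a7). The apical median includes Slc15a1 and Slc3a1, so no difference between the sides is read from it. The apical carriers that passed the filter in each tissue were at 8.14 (Slc6a19), 6.00 (Slc7a9) and 1.61 (Slc1a1). Slc7a15 was at 5.95 ± 0.65 (SE; edgeR, FDR = 1.01e-09). These values moved with the mixed libraries. Without the 2 mixed libraries, Slc15a1 was at 11.68, Slc6a19 at 9.67 and Slc3a1 at 12.69, whereas with all libraries they were at 9.43, 8.14 and 8.91. With the rat as a block, since both tissues came from the same animals, they were at 11.27, 9.43 and 11.28. The 7 members that passed the filter in each tissue were called as higher in ileum in each of these fits.

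In colon, 5 carriers were low. Leaving out the library of rat K4028, Slc15a1 had 0.0537 to 1.51 CPM in 17 colon libraries, Slc3a1 had 0 to 0.423 CPM with 11 libraries at 0, Slc7a15 had 0 to 1.33 CPM with 5 at 0, Slc6a19 had 1.40 to 5.61 CPM and Slc7a9 had 1.15 to 6.95 CPM. In the library of rat K4028 they had 559, 169, 48.0, 775 and 168 CPM. The share of the ND ileum median that this library reached was 39.9% to 67.8% over the 9 carriers. Carriers with a clear level in the other 17 colon libraries were Slc3a2, at 66.8 to 92.3 CPM, Slc1a1, at 14.0 to 28.1 CPM, Slc7a7, at 7.19 to 24.6 CPM, and Slc7a8, at 9.68 to 16.3 CPM.

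**Figure D4:**
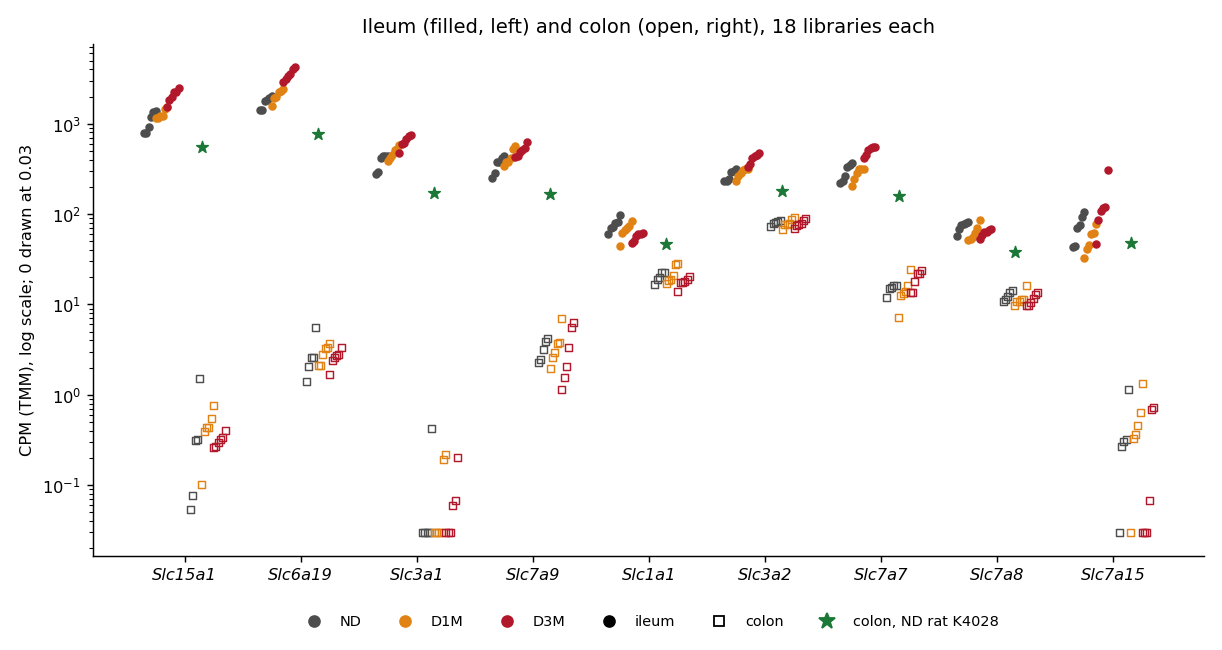
CPM on a log axis for each carrier in the 18 ileum libraries (filled, left) and the 18 colon libraries (open, right), coloured by group, with values of 0 drawn at the bottom of the axis and the colon library of ND rat K4028 as a star. The star lies above every other colon point of each carrier, and the gap between tissues is widest for Slc15a1 and Slc3a1 and narrowest for Slc1a1 and Slc3a2.

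Group comparisons in colon called none of the 7 members that passed the filter on low counts, which left out Slc15a1 and Slc3a1. Of all tested transcripts, 0.0155% passed between D3M and ND, 0% between D3M and D1M and 0% between D1M and ND. At an unadjusted p below 0.05, 2 of 7 members were found between D3M and ND (Slc1a1 and Slc7a15) and 0 in each of the other 2 comparisons, and DESeq2 and voom called 0 members in each. The share of all transcripts at that unadjusted p is not given, so nothing is read from these counts. The fitted values between D3M and ND rested on the library of rat K4028. The log2 fold change of Slc7a15 went from -4.17 to -0.49 and that of Slc1a1 from -0.44 to -0.19 when it was left out. Slc6a19 had a log2 fold change of D3M relative to ND of -3.80 ± 1.91 with it and 0.081 ± 0.33 without it, and Slc7a7 had -0.81 ± 0.64 with it and 0.26 ± 0.26 without it (SE).

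Slc3a2 was the best measured carrier in colon, and without that library its log2 fold change of D3M relative to ND was -0.04 ± 0.08 (SE; edgeR, FDR = 0.913). It had a median of 81.6 CPM in 5 ND rats, 78.3 CPM in 6 D1M rats and 78.3 CPM in 6 D3M rats, and its groups overlapped. Slc1a1 was at -0.19 ± 0.15 (SE; edgeR, FDR = 0.762) and Slc7a8 at -0.14 ± 0.13 (SE; edgeR, FDR = 0.81).

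The response in ileum minus the response in colon was tested over all 36 libraries. Between D3M and ND it passed for 2 of 9 members, Slc3a2 with 0.87 ± 0.22 (SE; edgeR, FDR = 0.0381) and Slc3a1 with 9.19 ± 1.82 (SE; edgeR, FDR = 0.0137), whereas 1.56% of all tested transcripts passed. Slc3a1 did not pass the filter on low counts in colon and entered this test only through ileum, where it is high. Its call is given as a description. Without the colon library of rat K4028 alone its value was 0.83. With the rat as a block, 0 of 9 members passed, at FDR = 0.248 for Slc3a2 and 0.397 for Slc3a1, and 0 transcripts passed in all. Without the 2 mixed libraries 0 of 9 passed, with Slc3a2 at 0.69 ± 0.16 (SE; edgeR, FDR = 0.063) and Slc3a1 at 0.93 ± 1.45 (SE; edgeR, FDR = 0.892). Leaving out the colon library of D3M rat K3961 or K3980 alone also left 0 calls, and leaving out that of ND rat K4037 or K4048 gave 4. Over the 36 fits that each left out 1 library, 46 to 728 of all transcripts were called, against 214 with all libraries. Nothing particular to the carriers is read from these shifts. For D3M relative to D1M and for D1M relative to ND, 0% of all tested transcripts and 0 of 9 members passed in edgeR, with 1 and 3 members at an unadjusted p below 0.05. Nothing is read from these 2 counts, as the share of all transcripts at that unadjusted p is not given.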

How the data were processed

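Libraries of polyadenylated RNA were made with a stranded kit from frozen pieces of distal ileum and proximal colon and sequenced on a NextSeq 500. According to the labels and the study's methods, the authors aligned reads with STAR to rn6 and counted them per annotated gene in SeqMonk. The STAR version and the strand setting of the counting are not given in the sources used here. The deposited table holds raw counts per gene with no normalization. A deposited table of scaled log2 values was not used.

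Counts were analysed in edgeR 4.0.16 (R 4.3.3, limma 3.58.1). Transcripts were kept by filterByExpr on group, scaled by TMM and fitted with glmQLFit (robust, legacy method) with flow cell (3 levels) as covariate, over the 18 libraries of a tissue. Contrasts were tested with glmQLFTest and adjusted by Benjamini and Hochberg over all transcripts tested, at FDR < 0.05. The SE is the log2 fold change over the root of F. Tissues and the difference of responses were fitted over 36 libraries, which held 10024041 to 21510043 counts each. As both libraries of a rat come from the same animal, the rat was a block in an alternative. Same-rat deviations correlated at -0.56 to 0.77, with 7 of 18 above 0.1. Each rat is a separate animal, and p-values of the fits within a tissue measure the spread between rats. The main fits over 36 libraries took both libraries of a rat as independent, so their p-values do not.

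Log2 CPM used a prior count of 2. The members and the 15 gene lists beside them (171 of 181 list genes, members included, matched) were chosen with earlier results of these data known. Named genes were all members, up to 4 genes with the smallest p per list, and Atp1b1, Anpep, Slc5a1 and Atf4, beside the 3 transcripts most like Slc15a1, Slc3a2 and Slc7a15 by Pearson's r. Some genes that the rule names are not reported here. Genes of the lists outside this rule that the text names were chosen after their values were seen.

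On simulated data with 200 changed transcripts among 12923, the D3M to ND fit in ileum recovered 16 of 40 at a log2 change of 0.7, 36 of 40 at 1 and 40 of 40 at 1.5. It also called 9 unchanged transcripts. For ileum minus colon, the fit recovered 3 of 40 at 0.7, 16 of 40 at 1 and 34 of 40 at 1.5. All simulated transcripts had the same dispersion, with no flow cell effect and no mixed library, and only well counted transcripts were changed. Recovery in the real data can therefore differ. For D3M relative to ND, the SE had a median of 0.17 on the log2 scale in ileum and 0.16 in colon. Alternatives were RLE and upper quartile scaling, no filter, a minimum of 1 CPM in at least 6 libraries, weighted voom, DESeq2 1.42.0, the edgeR 4 method, no robust estimation, no flow cell term, no flow cell 2 libraries, only the 2 groups compared, the replicate block, no mixed libraries, both of these together (chosen after seeing the data), a B cell or an epithelial score as covariate, and each library left out. Promoter sequences are RefSeq's (GRCr8), and coordinates of the genes are those of the count table (rn6). Figures were drawn with matplotlib 3.10.9.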

Additional observations from a re-analysis of the deposited data

Results flagged for a closer look

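In groups of 6 libraries, the CPM of each member was examined for a value far from the rest of its group by Dixon's limit on the gap to the nearest value over the whole range, which chance gives in about 1 in 20 groups. Such values were found in 13 of 54 groups, 12 of them in colon, of which 9 are the library of ND rat K4028.

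In that library, Slc15a1 had 559.2 CPM, Slc6a19 775.5 CPM, Slc3a1 169.3 CPM, Slc7a9 168.1 CPM and Slc7a7 159.3 CPM, against highest values of 1.509, 5.615, 0.4226, 4.242 and 16.4 CPM in the other ND colon libraries. Slc3a2 had 182.1 CPM there, Slc1a1 46.34 CPM, Slc7a8 38.3 CPM and Slc7a15 47.99 CPM, against at most 84.71, 22.65, 14.13 and 1.147 CPM. The same library held 8193 CPM of Fabp6 and 14112 CPM of the colonic Car1, against 18633 to 31482 CPM of Car1 in the other colon libraries.

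The other 3 values in colon were 0.2 CPM of Slc3a1 (3 counts) in D3M rat K3977, 6.951 CPM of Slc7a9 in D1M rat K3987 and 16.31 CPM of Slc7a8 in D1M rat K3978. In ileum, D3M rat P780 had 311.3 CPM of Slc7a15, against 119.8 CPM in the next D3M rat.

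The response to D3M relative to ND differed between ileum and colon by the interaction test for Slc3a1, by 9.19 on the log2 scale, and for Slc3a2, by 0.8731. The value of Slc3a1 is a description, since it entered the test only through ileum, where it is high. Neither passed with the rat as a block or without the 2 mixed libraries.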

How the results depend on the processing

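Over 9 members, calls between D3M and ND in ileum numbered 6, and 2 with only those groups in the fit or with the epithelial score as covariate. Between D3M and D1M they numbered 4, and 1 with the epithelial score. With that score Slc7a9 changed sign, to -0.050 against D1M and -0.033 against ND, and it passed against neither. The response of ileum minus colon for D3M relative to ND had 2 calls, 1 at a minimum of 1 CPM, 0 without the 2 mixed libraries, 0 with the replicate block, and 0 with both, where Slc3a1 was at -4.12. The last alternative was chosen after seeing the data. The replicate block left all 9 calls of ileum over colon. In colon, Slc6a19 was at 0.081 and Slc7a7 at 0.26 without the mixed libraries.

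Leaving out each library gave 0 to 5 calls between D3M and D1M, 5 to 7 between D3M and ND, and 0 to 4 and 0 to 1 for the difference of responses of D3M and of D1M relative to ND. Over all transcripts, the same fits called 6 to 761 between D3M and D1M and 675 to 2437 between D3M and ND. For the difference of responses they called 46 to 728 for D3M and 0 to 28 for D1M relative to ND. Slc7a8 ranged from -0.14 to 0.054 between D3M and D1M, and in colon Slc6a19 from -4.79 to 0.081 and Slc7a7 from -1.11 to 0.26. All other counts of called members under these alternatives lay within 1.5 times the reported count. The cause of these shifts was not tested.

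Of all transcripts, 1632 were called between D3M and ND, but 3007 without the flow cell term, 1024 without mixed libraries, 561 without flow cell 2, 185 with only those groups and 212 with the epithelial score. Between D3M and D1M, 289 were called, but 997 by DESeq2, 787 by voom, 189 unfiltered, 130 without flow cell 2 and 32 with the epithelial score. In colon, 2 were called between D3M and ND, but 73 by DESeq2, 8 by voom, 4 without mixed libraries, 315 with only those groups and 0 without the flow cell term, without flow cell 2 or with the epithelial score. The difference of responses had 214, but 133 unfiltered, 113 at 1 CPM, 37 without mixed libraries and 0 with the block. Between D1M and ND, DESeq2 called 28 in ileum, against 2 by edgeR, and 11 in colon, against 0. Depth limits Slc15a1, Slc3a1 and Slc7a15 in colon, with at most 25, 7 and 19 counts outside the mixed library.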
